A study of Mus musculus with 2 samples.

Results

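The genes *Mbp*, *Mobp*, *Mog*, *Mag*, *Cnp*, *Cldn11*, *Mal*, *Opalin* and *Ermn* encode proteins of the central myelin sheath and were followed in single-cell RNA sequencing (scRNA-seq) of the adult mouse striatum. They were listed by name and not by a rule on measured values, although earlier results of these data were known, and all 9 were found among the 32285 genes of both count matrices. The study deposited 2 libraries, replicates 1 and 2 of 1 condition, from dissociated striatum of untreated mice at 8 to 10 weeks of age per the labels. The labels name no allele, transgene or treatment in either library. The labels name both the strain C57/Bl6J and C57BL/6NTac, call the cells enriched for glia, and describe a debris removal step meant to take out myelin. The labels do not say which animals gave which library. The p-values below rest on how far differences between groups of cells vary between these 2 libraries, beyond a shift common to all groups. That variation may be technical. On the 10x Genomics platform each captured mRNA molecule carries a cell barcode and a unique molecular identifier (UMI), so that PCR copies are counted once.

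Myelin is the multilayered membrane that oligodendrocytes wrap around axons, and it speeds the conduction of impulses. Oligodendrocytes arise from oligodendrocyte precursor cells (OPCs), which pass through a short-lived premyelinating stage as new oligodendrocytes and then mature. Of the structural proteins, Mbp is the basic protein that holds the cytoplasmic faces of the compacted membrane together, Mobp is another basic protein of compact myelin and Cldn11 is the claudin of the tight junctions between its layers. Of the surface proteins, Mog is an immunoglobulin-domain protein on the outermost face of the sheath, Mag is a sialic acid-binding lectin of the membrane next to the axon, and Opalin is a transmembrane glycoprotein. Of the remaining proteins, Cnp is the cyclic nucleotide phosphodiesterase of uncompacted myelin, Ermn (ermin) binds actin, and Mal is a proteolipid that sorts membrane to the sheath and is also known from the apical membranes of epithelia. The transcription factors Sox10, Myrf and Olig2 are known regulators of oligodendrocyte genes.

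All 9 genes are protein coding, and the positions of 8 are given on GRCm38, the build also called mm10. *Mobp* spans chr9:120149707-120181484 (plus strand), *Mog* chr17:37010743-37023398 (minus), *Mag* chr7:30899176-30914873 (minus), *Cnp* chr11:100574904-100591729 (plus) and *Cldn11* chr3:31149920-31164324 (plus). *Mal* spans chr2:127633226-127656695 (minus), *Ermn* chr2:58045113-58052864 (minus) and *Opalin* chr19:41061710-41077113 (minus). An exon of *Cnp* overlaps one of *Dnajc7* on the opposite strand, and an exon of *Ermn* overlaps one of *Galnt5* on the opposite strand, so their values rest on the strand setting of the authors' counting, which is not given in the sources used here.

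The 250 bases before the RefSeq start of 8 members (GRCm38.p6; no window was used for *Mbp*) were searched on both strands for ACAAAG (the core bound by Sox factors, CTTTGT when read on the opposite strand), CTGGCAC (a core bound by Myrf) and CANNTG (the E-box, bound by factors such as Olig2). Over all 32851 promoters of the same length, 16.5% held ACAAAG, 4.19% held CTGGCAC and 66.2% held CANNTG. The promoters of 4 members held at least 1 of these letter runs and are shown because they stand for genes that differ in their course along the lineage below. They are printed 5′ to 3′ on the strand of the gene, with ACAAAG or CTTTGT and CTGGCAC in capitals.
Cnp, chr11:100574689-100574903: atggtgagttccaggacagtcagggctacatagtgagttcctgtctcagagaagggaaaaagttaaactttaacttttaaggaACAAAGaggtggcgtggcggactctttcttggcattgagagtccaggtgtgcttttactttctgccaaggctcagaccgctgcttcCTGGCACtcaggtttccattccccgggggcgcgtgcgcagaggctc
Mag, chr7:30914923-30915172: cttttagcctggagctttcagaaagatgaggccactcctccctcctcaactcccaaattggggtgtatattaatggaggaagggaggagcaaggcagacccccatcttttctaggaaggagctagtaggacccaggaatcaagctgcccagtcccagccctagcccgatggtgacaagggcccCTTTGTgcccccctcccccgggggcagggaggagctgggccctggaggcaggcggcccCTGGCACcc
Mobp, chr9:120149492-120149706: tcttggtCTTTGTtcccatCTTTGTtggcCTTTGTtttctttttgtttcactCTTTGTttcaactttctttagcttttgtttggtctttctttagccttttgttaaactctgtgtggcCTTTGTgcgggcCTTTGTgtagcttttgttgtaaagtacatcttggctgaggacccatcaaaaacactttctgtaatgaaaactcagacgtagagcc
Opalin, chr19:41077114-41077363: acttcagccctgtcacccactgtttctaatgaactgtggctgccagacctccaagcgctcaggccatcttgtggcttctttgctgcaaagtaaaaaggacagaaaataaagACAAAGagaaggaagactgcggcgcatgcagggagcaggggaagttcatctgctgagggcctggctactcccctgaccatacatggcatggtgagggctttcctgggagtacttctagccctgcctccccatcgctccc
The last 35 bases of the *Mobp* and *Cnp* windows lie in an annotated exon and are not shown. The *Mag* window belongs to the most upstream of its RefSeq starts. The *Cnp* promoter held ACAAAG 167 bases, CANNTG 124 bases and CTGGCAC 81 bases before the start. The *Mag* promoter held ACAAAG 67 bases before the start on the opposite strand and CTGGCAC 9 bases before it. The *Mobp* promoter held ACAAAG 6 times, each on the opposite strand, between 243 and 120 bases before the start. The *Opalin* promoter held ACAAAG 139 bases and CANNTG 93 bases before the start. The windows of *Mog*, *Cldn11*, *Mal* and *Ermn* held none of these letters. A match is a run of letters and not a measured binding site.

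Library 1 held 6978 barcodes and 44597660 UMIs, and library 2 held 5437 barcodes and 37982720 UMIs. The median barcode had 3852 UMIs in library 1 and 5375 in library 2, and the libraries shared 9 barcode sequences. After filters, 6783 and 5212 cells remained. Cells were clustered without the 9 members and 22 related myelin genes, so that none of these defined a cluster, and the clusters were named from other markers, with the suffix "-like". Oligodendrocyte-like cells numbered 1186 in library 1 and 1177 in library 2, in a deep cluster with all 12 oligodendrocyte markers raised and a shallow one with 5 of the 12. OPC-like cells numbered 300 and 343, with all 9 of their markers raised. Some other classes may be mixed. At a finer clustering the neuron-like cells numbered 384 and 260, not 192 and 170. A shallow astrocyte-like cluster then held 1049 and 561 cells, not 1241 and 651. *Sst* was among the leading genes of its larger form, so the astrocyte-like class may include neurons. The neuroblast-like class also had all 7 markers of progenitor-like cells raised, and the mural-like class all 6 of fibroblast-like cells. These classes were rebuilt and are not the authors' own, which can make values differ from the study's. Counts were summed over the cells of each library and class or subcluster, and levels are given in counts per 1000000 UMIs of that sum (CPM), library 1 first. The sums entered the quasi-likelihood test of edgeR, blocked by library. The log2 differences are the fitted ones, and a call means a Benjamini-Hochberg adjusted p under 0.05 over all genes tested. UMIs at the 3′ end are not divided by length, so each gene is compared with itself across cells and not with other genes. In sums over cells, fewer cells making a transcript and less of it per cell cannot be told apart.

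All 9 members were highest in oligodendrocyte-like cells, in both libraries and by a wide margin. Together they made up 39608 and 36959 CPM there, and the median oligodendrocyte-like cell held 380.5 and 419 UMIs of the 9 genes. *Mbp* stood at 5471 and 4631 CPM, *Mobp* at 4287 and 3217 CPM, and *Cldn11* at 4184 and 4400 CPM. The surface proteins *Mog*, *Mag* and *Opalin* stood at 2215 and 2120, 4294 and 4017, and 923 and 1319 CPM. *Cnp* stood at 6023 and 5668 CPM, *Mal* at 10520 and 9933 CPM, and *Ermn* at 1690 and 1654 CPM. The libraries were close for most members, with *Opalin* higher in library 2 and *Mobp* higher in library 1.

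Each member passed the test against each of the 8 other classes fitted. Over all 15316 genes tested, 1288 genes (8.41%) were higher in oligodendrocyte-like cells than in every other class. The smallest log2 difference was that of *Mal* over endothelial-like cells, 3.63 (SE 0.48), and the largest that of *Mal* over OPC-like cells, 7.48. The largest adjusted p among these comparisons was 5.9e-06 by edgeR's quasi-likelihood test. For *Mbp* the nearest class was astrocyte-like cells, which may include neurons, with a log2 difference of 4.62 (SE 0.35). For *Ermn* it was macrophage-like cells, with 4.54 (SE 0.59). That level of *Ermn* rested on 1 macrophage-like cell of library 2, which held 58 of the 66 *Ermn* UMIs and 492 UMIs of the other members, and without it 144 CPM became 18.5 CPM. Levels in the other classes did not overlap with those in oligodendrocyte-like cells for any member. When the clustering was finer, a cluster named new oligodendrocyte-like and holding 192 and 189 cells stood beside the oligodendrocyte-like class, and against it 1 member was called higher. That cluster mixed 91 and 68 of the new cells and 89 and 96 of the *Ctps*-led cells described below. With that cluster left aside, all 9 were called.

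**Figure D1:**
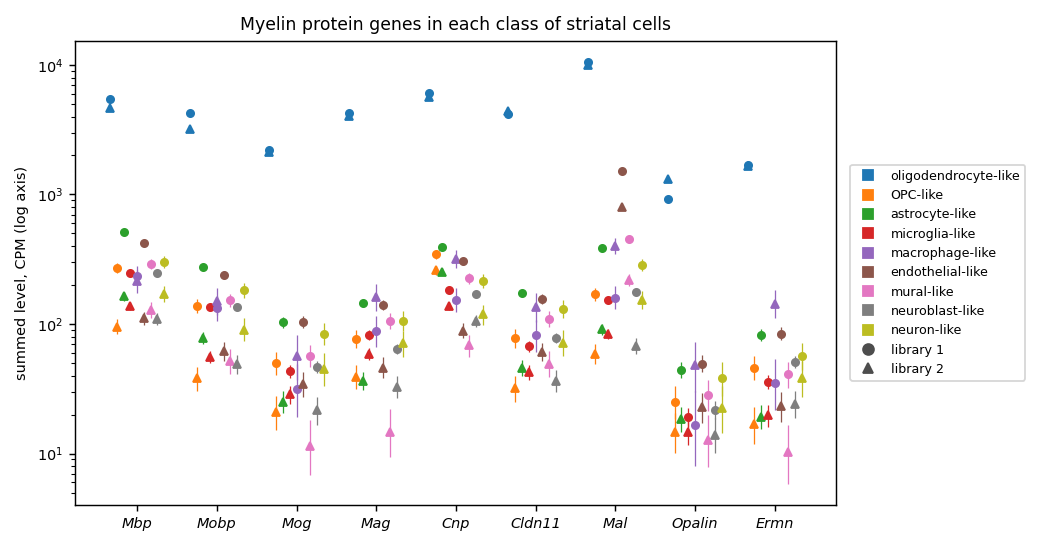
Summed level of each myelin protein gene (CPM, log axis) in each class of cells, with circles for library 1, triangles for library 2 and bars for the exact Poisson 95% interval, which covers counting error only. Oligodendrocyte-like cells lie above every other class for each gene, and endothelial-like cells stand out for *Mal* at 1517 and 801 CPM.

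To follow the genes along the lineage, OPC-like and oligodendrocyte-like cells were clustered by themselves, again without the members and related genes. The precursor cells (299 and 342 cells) were the OPC-like subclusters. The new cells (92 and 69) were a subcluster led by *Bmp4*, *Fyn* and *Gpr17*, in which all 8 markers of new oligodendrocytes were raised. The mature cells (985 and 993) were 4 subclusters with oligodendrocyte-like markers. A further subcluster of 102 and 98 cells, led by *Ctps*, fitted no name and is described apart. *9630013A20Rik*, a marker of new oligodendrocytes, was among its leading genes. The values of new cells below leave these cells out. A small subcluster of 8 and 18 cells with markers of new oligodendrocytes was left out of the fit.

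From precursor to new cells, 6 of the 9 members rose, and they did so by very different amounts. *Mbp* stood at 272 and 95.3 CPM in precursor cells and at 4780 and 5309 CPM in new cells, a log2 difference of 4.52 (SE 0.20; edgeR adjusted p = 6.8e-17). *Cnp* went from 343 and 256 CPM to 4594 and 4340 CPM, a log2 difference of 4.10 (SE 0.15). *Mag* went from 77.3 and 39.5 CPM to 1330 and 1956 CPM, and *Cldn11* from 78.9 and 31.9 CPM to 1445 and 2034 CPM, log2 differences of 4.59 (SE 0.21) and 4.71 (SE 0.22). For these 4 genes the ranges of the 2 stages were far apart. *Mog*, with 50.5 and 20.8 CPM before and 171 and 210 CPM after, rose less, by 2.10 (SE 0.22).

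*Mobp* passed the test with a log2 difference of 0.76 (SE 0.28; edgeR adjusted p = 0.027), but its libraries disagreed. Summed over all precursor cells it stood at 139 and 38.1 CPM, beside 133 and 229 CPM in new cells, so that only library 2 showed a rise. The call was lost with DESeq2, with library sizes alone, without the block and with a minimum of 500 genes per cell, and the direction turned when cells were thinned to 1000 UMIs. In the fit a deep and a shallow precursor subcluster had equal weight, though they held 435 and 206 cells. *Mobp* stood at 112 and 29.9 CPM in the deep and at 345 and 115 CPM in the shallow one. Over the deep subcluster alone, *Mobp* was higher in new cells of both libraries. *Mal* (171 and 59.0 CPM in precursor, 202 and 123 CPM in new cells), *Ermn* (46.8 and 16.4, then 45.8 and 37.9 CPM) and *Opalin* (25.2 and 14.6, then 15.8 and 8.92 CPM) did not pass the test. *Mal* was nonetheless higher in new cells of both libraries and *Ermn* in those of library 2, so a missed call does not show an unchanged level. In the deep precursor subcluster *Ermn* stood at 40.5 and 16.2 CPM, below new cells in both libraries, and *Opalin* at 20.2 and 11.3 CPM, above them. With doublets kept all 9 members were called higher, *Mal* by 1.32, *Ermn* by 1.43 and *Opalin* by 1.80, the last with its direction turned. The subcluster of new cells then held the same 92 and 69 cells and also 28 and 16 *Ctps*-led cells and 3 and 4 marked doublets. *Opalin* stood at 391 and 588 CPM in the added *Ctps*-led cells and at 789 and 1259 CPM in the doublets. For comparison, microglia-like cells, which make no myelin, held *Mal* at 154 and 83.5 CPM, *Ermn* at 35.6 and 19.7 CPM and *Opalin* at 19.0 and 14.8 CPM. Over all 12133 genes of the lineage fit, 21.7% were called higher and 23.0% lower in new than in precursor cells.

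**Figure D2:**
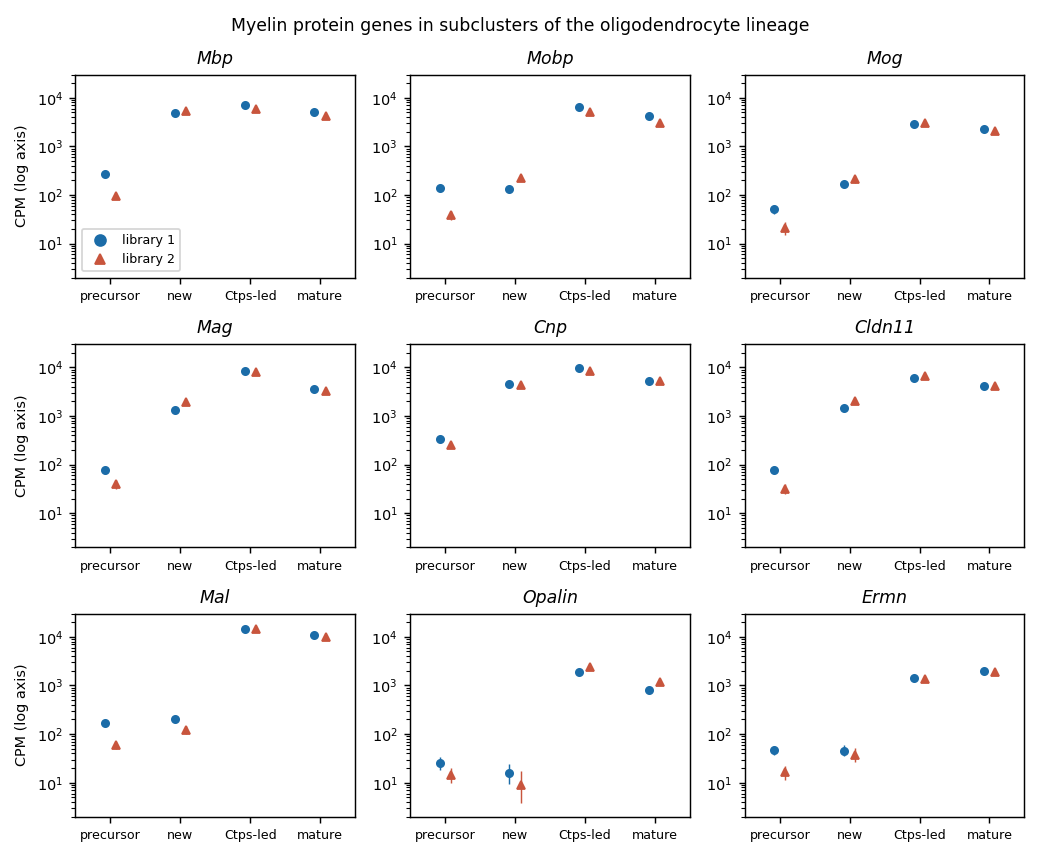
Summed level (CPM, log axis) of each myelin protein gene in precursor, new, *Ctps*-led and mature cells of the oligodendrocyte lineage, with 1 point per library and exact Poisson 95% bars. *Mbp*, *Cnp*, *Mag* and *Cldn11* stand over 1000 CPM in new cells, whereas *Mal*, *Opalin* and *Ermn* stand at 202 CPM or less there and at 1387 CPM or more in *Ctps*-led cells.

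From new to mature cells, 8 of the 9 members rose. The largest log2 differences were those of *Mal*, 6.24 (SE 0.30), *Opalin*, 5.62 (SE 0.27), and *Ermn*, 5.53 (SE 0.24), with edgeR adjusted p-values of at most 6.0e-17. In mature cells *Mal* stood at 10857 and 9773 CPM, *Opalin* at 790 and 1201 CPM and *Ermn* at 1950 and 1857 CPM. *Mobp* rose by 4.49 (SE 0.28) to 4226 and 3070 CPM, and *Mog* by 3.97 (SE 0.19) to 2270 and 2094 CPM. *Mag* and *Cldn11* rose by 1.67 (SE 0.18) and 1.65 (SE 0.19), to 3630 and 3318 CPM and to 4045 and 4163 CPM. *Mbp*, at 5164 and 4314 CPM in mature cells, had a log2 difference of 0.21 (SE 0.17; edgeR adjusted p = 0.34) and its values in the 2 stages overlapped. *Cnp*, at 5282 and 5185 CPM, passed narrowly with 0.33 (SE 0.13; edgeR adjusted p = 0.040), a call that was lost with DESeq2 and without the block and whose direction turned with library sizes alone. In this fit each mature subcluster had equal weight. The mitochondria-rich one, described below, held *Cnp* at 1631 and 2068 CPM, beside 4641 to 5976 CPM in the others. Over all genes, 23.0% were called higher and 27.7% lower in mature than in new cells.

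Set against the mature level, the members fell into an order, which is less sure at its lower end. New cells held *Mbp* at 92.6% and 123% of the mature level and *Cnp* at 87.0% and 83.7%. *Mag* followed at 36.6% and 59.0% and *Cldn11* at 35.7% and 48.9%, with ranges that overlapped, so that these 2 are not ordered. *Mog* stood at 7.54% and 10.0% and *Mobp* at 3.16% and 7.44%. *Ermn* was at 2.35% and 2.04%, *Mal* at 1.86% and 1.25% and *Opalin* at 2.00% and 0.743%, and the last 2 overlapped. The levels of *Ermn*, *Mal* and *Opalin* in new cells were near those in microglia-like cells given above. *Mobp* was near that level in library 1, at 133 beside 135 CPM, but not in library 2, at 229 beside 55.8 CPM. Such low levels do not settle the order among these genes, and the part of background RNA in it was not tested. Thus 5 members were under 20% of their mature level in new cells of both libraries. Among the promoters printed above, those of *Cnp* and *Mag* belong to genes at over 30% of the mature level in new cells and those of *Mobp* and *Opalin* to genes under 10%. The window of *Cldn11*, at 35.7% and 48.9%, held none of the letter runs, nor did those of *Mog*, *Mal* and *Ermn*. A link between letter runs and level was not tested.

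The change showed in single cells as well as in sums. After each cell was thinned to 1000 UMIs, 86.7% and 78.8% of new cells held an *Mbp* UMI and 90.0% and 90.9% a *Cnp* UMI, whereas 12.2% and 9.09% held a *Mobp* UMI and 16.7% and 15.2% a *Mal* UMI. In mature cells thinned likewise, 96.4% and 96.2% held an *Mbp* UMI, 89.2% and 85.9% a *Mobp* UMI and 99.1% and 99.4% a *Mal* UMI. In microglia-like cells at the same depth, 16.0% and 5.16% held a *Mobp* UMI and 17.5% and 10.2% a *Mal* UMI, so that the shares of new cells with these transcripts were near the share in a class that should lack them. An *Opalin* UMI was found in 3 of 90 thinned new cells of library 1 (3.33%, exact binomial 95% interval 0.693 to 9.43%) and in 0 of 66 of library 2 (0 to 5.44%). By composition, *Mbp* and *Cnp* gave 37.6% and 36.1% of the member UMIs of new cells in library 1 and 37.3% and 30.5% in library 2, beside 13.5% and 13.8%, and 12.3% and 14.8%, in mature cells.

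**Figure D3:**
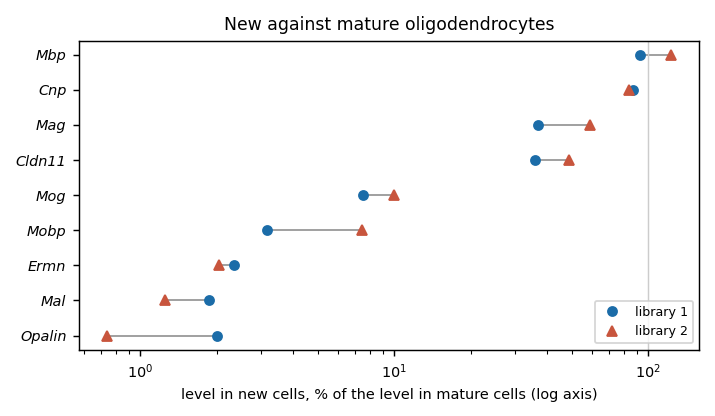
Level in new oligodendrocytes as a percent of the level in mature cells (log axis), with 1 symbol per library joined by a line, for each myelin protein gene. *Mbp* and *Cnp* lie near the grey line at 100%, *Mag* and *Cldn11* between 35.7% and 59.0%, and the other 5 at or under 10.0%.

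The *Ctps*-led cells had the highest summed level of members in the lineage, 57940 and 55327 CPM beside 38214 and 34974 CPM in mature cells. *Mag* stood at 8310 and 8062 CPM, *Cnp* at 9649 and 8458 CPM and *Opalin* at 1886 and 2359 CPM, or 229% and 243%, 183% and 163%, and 239% and 196% of the mature level. *Mal*, at 14141 and 14563 CPM, stood at 130% and 149% of the mature level, and *Ermn*, at 1447 and 1387 CPM, at 74.2% and 74.7%. In all, 8 members were lower in mature than in *Ctps*-led cells. The largest log2 differences were those of *Opalin*, -1.94 (SE 0.13), and *Cnp*, -1.04 (SE 0.12), whereas *Ermn* did not pass, with 0.15 (SE 0.15). Over all genes, 17.6% were called lower. The mature stage entered this fit as the mean of its subclusters with equal weight. In the smallest of these, the *Klk6*-led cells described below, *Opalin* stood at 73.7 and 80.8 CPM. In the largest, led by *Il33*, it stood at 1206 and 1696 CPM. The mitochondria-rich subcluster, also described below, held *Ermn* at 463 and 516 CPM and *Cnp* at 1631 and 2068 CPM. In the other mature subclusters *Ermn* stood at 1760 to 2502 CPM, above the *Ctps*-led cells, and *Cnp* at 4641 to 5976 CPM, below them. The part of the mitochondria-rich cells in these differences was not tested. With DESeq2 or without the block, *Mag*, *Cnp* and *Opalin* remained called and the other 5 did not. The spread within these cells was uneven for *Mal*. At 1000 UMIs per cell 78.4% and 83.7% of *Ctps*-led cells held a *Mal* UMI, below the 99.1% and 99.4% of mature cells, although the summed level was higher. The *Ctps*-led cells were the deepest of the lineage, with medians of 25885 and 25371 UMIs, and held erythroid marker genes at a summed 5058 and 4351 CPM, beside 104 and 13.6 CPM in mature cells, and the part of these in the levels was not tested.

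Among the deep subclusters of mature cells, *Opalin* passed the test in each contrast, *Mal* in 1 and the other 7 members in none. There were 3 such subclusters, led by *Il33* (327 and 460 cells), *Anln* (164 and 211) and *Klk6* (70 and 82), and these contrasts were chosen after the values were seen. *Opalin* stood at 1206 and 1696 CPM in *Il33*-led cells, at 557 and 891 CPM in *Anln*-led cells and at 73.7 and 80.8 CPM in *Klk6*-led cells, in this order in both libraries and with no overlap. *Klk6*-led cells differed from *Il33*-led cells by -4.22 on the log2 scale (SE 0.21; edgeR adjusted p = 3.8e-15) and from *Anln*-led cells by -3.19 (SE 0.21; edgeR adjusted p = 4.7e-12). *Anln*-led cells differed from *Il33*-led cells by -1.04 (SE 0.18; edgeR adjusted p = 0.00019), a call that was lost with DESeq2 and without the block. Thinned to 1000 UMIs, 3 of 70 (4.29%) and 5 of 82 (6.10%) *Klk6*-led cells held an *Opalin* UMI, beside 65.7% and 76.5% of *Il33*-led cells and 2.55% and 1.14% of microglia-like cells.

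*Mal* followed the same order less steeply, with 13640 and 11867 CPM in *Il33*-led, 9214 and 8175 CPM in *Anln*-led and 5744 and 5088 CPM in *Klk6*-led cells. Its log2 difference between *Klk6*-led and *Il33*-led cells was -1.26 (SE 0.24; edgeR adjusted p = 0.00029), and without the block the adjusted p was 0.084. Of the members that did not pass, *Mbp* stood at 5295 and 4282, 5504 and 4668, and 5442 and 4445 CPM in the 3 subclusters. *Ermn* stood at 1942 and 1760, 2229 and 2044, and 2502 and 2372 CPM, in the reverse order of *Opalin* and without overlap. Over all genes, 6.74% were called lower in *Klk6*-led than in *Il33*-led cells, 1.97% in *Anln*-led than in *Il33*-led cells and 1.83% in *Klk6*-led than in *Anln*-led cells.

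**Figure D4:**
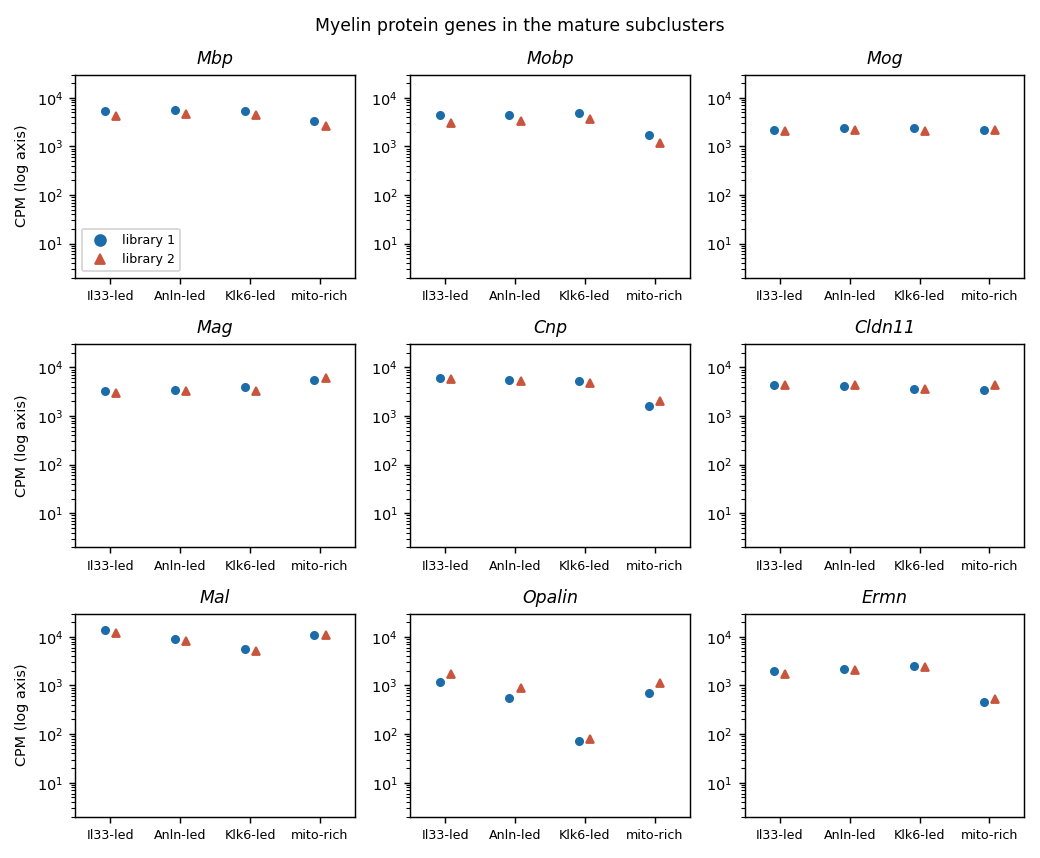
Summed level (CPM, log axis) of each myelin protein gene in the 4 mature subclusters, with 1 point per library and exact Poisson 95% bars. *Opalin* falls from 1206 and 1696 CPM in *Il33*-led cells to 73.7 and 80.8 CPM in *Klk6*-led cells, and the mitochondria-rich cells stand apart for *Mobp*, *Mag*, *Cnp* and *Ermn*.

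The largest pair of mature subclusters, compared by design, were the *Il33*-led cells and a mitochondria-rich subcluster of 424 and 240 cells. The latter had medians of 2462 and 2452 UMIs and 20.7% and 28.1% mitochondrial UMIs, beside 14064 and 12238 UMIs and 5.25% and 6.82% in *Il33*-led cells. *Mag* was higher in the mitochondria-rich cells, at 5383 and 6104 CPM beside 3208 and 3022 CPM, a log2 difference of 1.23 (SE 0.20; edgeR adjusted p = 2.1e-05). *Ermn* was lower, at 463 and 516 CPM beside 1942 and 1760 CPM, by -1.58 (SE 0.19). *Cnp* was lower, at 1631 and 2068 CPM beside 5976 and 5672 CPM, by -1.30 (SE 0.17). *Mobp*, at 1712 and 1199 CPM beside 4429 and 2984 CPM, was lower by -1.01 (SE 0.25). The other 5 members did not pass. Over all genes, 17.3% were called higher and 18.8% lower in the mitochondria-rich cells. Depth and mitochondrial share move with this comparison, and their part in it was not tested.

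Outside oligodendrocyte-like cells, the 9 genes were detected at a low level in each of the 8 other classes fitted. Erythroid-like cells, 86 and 11 in the 2 libraries, were too few in library 2 to be fitted. Summed over members, the level in the 8 other classes fitted was lowest in neuroblast-like cells of library 2, at 460 CPM, and highest in endothelial-like cells of library 1, at 3018 CPM. In library 2 macrophage-like cells held most, 1628 CPM, followed by endothelial-like cells at 1249 CPM. Microglia-like cells held 966 and 580 CPM, and OPC-like cells, which precede myelination, held 1200 and 574 CPM, near the level in microglia-like cells. The mean over libraries in microglia-like cells was 2.00% of the level in oligodendrocyte-like cells. In 7 of the 8 classes library 1 held more than library 2. Macrophage-like cells, at 937 and 1628 CPM, were the exception, and there 1 cell gave 550 of the 748 member UMIs of library 2. The median cell of these classes held 4 to 6 member UMIs in library 1 and 2 or 3 in library 2. In neuron-like cells of library 2, 1 cell gave 348 of 838 member UMIs.

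Within a library, RNA from 1 source keeps its genes in 1 ratio in every class. Each member was therefore also expressed as a percent of its level in oligodendrocyte-like cells and divided by the median of the 9 percents in that class. Background RNA need not have the composition of oligodendrocyte-like cells, so a ratio of 1 is the median member and not a measured background. In microglia-like cells *Cnp* was at 1.47 and 1.79 times and *Mal* at 0.71 and 0.62 times. *Mbp* was above the median member in each class of both libraries, at 2.19 and 2.22 times in microglia-like, 1.91 and 2.24 times in neuroblast-like and 1.53 and 1.76 times in neuron-like cells, and lowest at 1.14 times in macrophage-like cells of library 2. Its share of member UMIs was 25.6% and 23.9% in microglia-like cells beside 13.8% and 12.5% in oligodendrocyte-like cells. In the 8 other classes fitted, *Cldn11*, *Mog*, *Opalin* and *Ermn* stayed between 0.49 and 1.39 times, apart from *Ermn* in macrophage-like cells of library 2, at 2.15 times. There 58 of its 66 UMIs came from the cell named above. *Mobp* was above the median in each of these classes, between 1.10 and 2.05 times, with the highest value in astrocyte-like cells of library 2. *Mag* lay between 0.33 times, in mural-like cells of library 2, and 1.08 times. *Mal* and *Cnp* reached higher ratios, up to 4.96 and 4.51 times.

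*Mal* stood at 1517 and 801 CPM in endothelial-like cells, 2.84 and 4.96 times the median member. It made up 50.3% and 64.1% of their member UMIs, beside 26.6% and 26.9% in oligodendrocyte-like cells and 15.9% and 14.4% in microglia-like cells. Over microglia-like cells its log2 difference was 2.94 (SE 0.47; edgeR adjusted p = 5.5e-05), and the other 8 members did not pass. Over all genes, 21.3% were called higher in endothelial-like than in microglia-like cells. The level did not rest on 1 cell, since without the cell that held most *Mal* UMIs it was 1463 and 790 CPM. In library 1 that cell held 263 of 5156 *Mal* UMIs and also 698 UMIs of the other members. The 3 endothelial-like cells with most member UMIs gave 19.7% and 7.13% of the member UMIs of the class. At 1000 UMIs per cell, 67.0% (exact binomial 95% interval 63.1 to 70.7%) and 47.8% (43.3 to 52.4%) of endothelial-like cells held a *Mal* UMI, beside 17.5% (15.2 to 19.9%) and 10.2% (8.38 to 12.3%) of microglia-like cells. Between the deepest clusters of the classes, a comparison added after the values were seen, the difference was 3.19 (SE 0.44; edgeR adjusted p = 8.9e-08), where 22.0% of genes were called higher. In the same comparison *Mal* was higher by 1.59 (SE 0.42; edgeR adjusted p = 0.0019) in the deepest mural-like cluster, where 22.7% of genes were called higher, and without the block that adjusted p was 0.065. The mural-like class covers pericytes and smooth muscle, and it also had all 6 fibroblast-like markers raised. Its deepest cluster was led by *Acta2*, *Tagln* and *Myh11*. Endothelial-like cells also held erythroid markers at a summed 8127 and 720 CPM, beside 419 and 19.3 CPM in microglia-like cells, and their part was not tested.

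*Cnp* stood at 346 and 259 CPM in OPC-like cells and at 393 and 254 CPM in astrocyte-like cells, beside 183 and 137 CPM in microglia-like cells. It was 2.11 and 4.51 times the median member in OPC-like cells, where it made up 28.8% and 45.1% of the member UMIs. In astrocyte-like cells it was 1.35 and 3.77 times the median member, beside 1.47 and 1.79 times in microglia-like cells. The excess of *Cnp* in CPM over microglia-like cells did not pass the test. With TMM factors the log2 difference over microglia-like cells was 0.14 (SE 0.39; edgeR adjusted p = 0.79) for OPC-like and 0.55 (SE 0.39; edgeR adjusted p = 0.23) for astrocyte-like cells. With library sizes alone these differences were 0.92 (edgeR adjusted p = 0.055) and 0.99, and the second passed. The same TMM factors put *Mbp* and *Mobp* lower in OPC-like than in microglia-like cells, by -0.96 and -0.97, where 31.9% of all genes were called lower, although the CPM of *Mbp*, 270 and 95.4 beside 247 and 139, overlapped. Both calls were lost with DESeq2, with library sizes alone and without the block. *Mag* was lower in neuroblast-like than in microglia-like cells by -1.12, where 31.6% of genes were called lower, and this call was lost under the same 3 settings.

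The tight-junction gene *Cldn11* was called in 1 more place. In fibroblast-like cells, 35 and 20 cells seen only at the finer clustering, it stood at 134 and 326 CPM, with a log2 difference of 1.76 (SE 0.56; edgeR adjusted p = 0.015) over the deepest microglia-like cluster, where 13.8% of genes were called higher. In library 2, 38 of its 41 UMIs lay in 1 cell that held no UMI of the other members, and without that cell the level was 29.0 CPM. In library 1, 12 of 24 UMIs lay in 1 cell that also held 184 UMIs of the other members, the level without it was 75.5 CPM, and 9 of the 35 cells held a UMI. Without the block the adjusted p was 0.077.

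The deepest clusters gave further small differences from the deepest microglia-like cluster. In the deepest astrocyte-like and neuroblast-like clusters no member was called, with median log2 differences over the members of -0.34 and -0.30. The deepest neuron-like cluster was the only 1 of that name at the finer clustering. It held 384 and 260 cells, beside 192 and 170 in the neuron-like class. Its medians of 2468 and 2639 UMIs were below the 8224 and 6026 UMIs of the microglia-like cluster. There *Mbp* (633 and 264 CPM beside 221 and 133 CPM), *Mobp*, *Mal* and *Opalin* were higher, by 0.85 to 0.96 on the log2 scale, and 33.9% of genes were called higher. In the neuron-like class *Mbp* stood at 301 and 171 CPM. The deepest OPC-like cluster was lower for *Mbp*, *Mobp* and *Mag*, by -1.05, -0.99 and -1.08, with 28.9% of genes called lower. In the deepest mural-like cluster *Mbp* and *Cnp* were lower, by -1.29 and -1.53, with 24.5% of genes called lower. In the ependymal-like cluster *Mag* was lower, by -1.54, with 22.5% called lower. Its 59 and 51 cells had no class of their own at the main clustering. This call and that of *Mag* in neuroblast-like cells may therefore share cells. None of these 10 calls, the rise of *Mal* in mural-like cells not counted, held without the block.

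**Figure D5:**
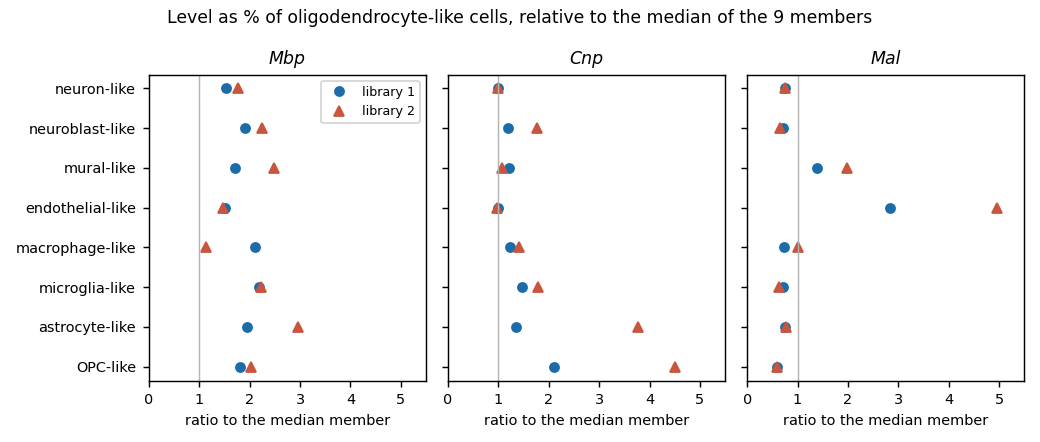
Level of *Mbp*, *Cnp* and *Mal* in each class as a percent of oligodendrocyte-like cells, divided by the median of the 9 members in that class and library (grey line at 1). The line is not a measured background. *Mal* reaches 2.84 and 4.96 in endothelial-like cells, *Cnp* 2.11 and 4.51 in OPC-like cells, and *Mbp* lies above 1 in each class.

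A list of 22 related genes, of which 19 were tested, gave the setting of the 9 members in the same cells. *Pmp2* and *Prx*, genes of peripheral myelin, were at or near 0. From precursor to new cells 14 of the 19 were higher, 3 were lower and 2 did not pass, with a median log2 difference of 1.89 beside -0.07 over all genes and 2.10 over the 9 members. *Myrf*, the transcription factor of myelination, rose by 3.39 (SE 0.18) to 199 and 232 CPM. The 3 lower genes were *Omg*, a glycoprotein of the myelin surface, the gap junction gene *Gjb1*, at -1.52 (SE 0.39), and *Pmp22*, a myelin protein best known from peripheral nerve, at -2.75 (SE 0.26).

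From new to mature cells 13 of the 19 related genes were higher, 5 were lower and 1 did not pass, with a median of 1.40 beside -0.03 over all genes and 3.97 over the members. *Aspa*, the enzyme that splits N-acetylaspartate, rose by 5.94 (SE 0.25), *Cntn2*, an adhesion protein next to the nodes, by 5.67 (SE 0.22) and *Gjb1* by 6.01 (SE 0.21). These log2 differences were in the range of *Mal*, *Opalin* and *Ermn*. The 5 lower genes were *Sirt2*, a tubulin deacetylase, at -2.78 (SE 0.09), *Bcas1*, a marker of early myelinating cells, at -2.64 (SE 0.09), the adhesion gene *Nfasc* at -2.22 (SE 0.11), *Gjc3* at -0.56 and *Gal3st1*, which makes sulfatide, at -0.39. None of the 9 members was called lower in that step. In *Klk6*-led over *Il33*-led cells 6 related genes were higher, led by *Pmp22* at 3.43 (SE 0.15), beside 8.32% of all genes, and 4 were lower, led by *Tspan2* at -1.31 (SE 0.16).

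The levels of the members across classes were also compared with the median of the 9, a profile to which each member itself contributes. Over the 18 sums of 9 classes and 2 libraries, the correlation of log2 CPM with the median member was highest for *Cldn11* (r = 0.998) among 8582 genes, and 7 members ranked within the first 11. Against the median of the other 8 members *Cldn11* had r = 0.987, and again 7 members ranked within the first 11. *Cnp* ranked 23 (r = 0.941) and *Mal* 39 (r = 0.919) against the median of all 9, and 21 and 45 against that of the other 8. *Cnp* had its highest ratio to the median member in OPC-like cells, where its test did not pass, and *Mal* in endothelial-like cells. The 10 genes outside both lists that came closest were *Tmem88b*, *Smco3*, *Tnni1*, *Tmem125*, *Enpp6*, *Qdpr*, *S1pr5*, *Hapln2*, *Josd2* and *Plekhh1*, with r from 0.982 to 0.949. Of these, *Tmem88b*, *Qdpr* and *Hapln2* were markers used to name oligodendrocyte-like cells, and *Enpp6* was one for new oligodendrocytes. None of the 10 was kept out of the clustering, so their closeness is partly built into the classes. The 18 sums share 2 libraries and the free RNA of each, and these values are given as a description.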

How the data were processed

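scRNA-seq counts of 2 libraries were used. The authors deposited raw UMI counts per gene and barcode, without normalization, made with Cell Ranger on mm10. The matrix headers give version 4.0.0, the submitters' processing notes 4.0, and the paper another version. Kits v2 and v3 are named without saying which library used which, and the strand setting of the counting is not given in the sources used here.

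Barcodes with under 300 detected genes (80 and 73) and genes found in 3 cells or fewer were left out, and 115 and 152 doublets marked by Scrublet (scanpy 1.11.5, expected rate 6%) were removed. Seurat 5.3.0 in R 4.3.3 scaled cells to 10000 UMIs and joined the libraries on 2000 variable genes by canonical correlation analysis. Louvain clustering used 30 principal components, with a resolution of 0.08 for all cells and 0.3 for lineage cells. The 9 members and 22 related genes were left out of clustering and naming. A name needed 3 or more of a class's markers at 2-fold or more over other cells, with 10 CPM added to both, and 1 or more among the cluster's 50 leading genes. Members, lists and markers were chosen with earlier results of these data known.

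UMIs were summed per library and group of at least 20 cells in each library and fitted in edgeR 4.0.16 (filterByExpr, TMM, quasi-likelihood test, library as block, prior count 2), with Benjamini-Hochberg adjustment over all genes at 0.05. The groups of a library share its cell suspension, which is why the library is a block. A stage of several subclusters entered as their mean, each with equal weight. On simulated counts of oligodendrocyte-like over microglia-like cells, 95% of 4-fold and 24% of 2-fold changes were recovered over 15316 genes. For mature over new cells these shares were 95% and 22% over 12133 genes. The spread of the simulated counts was 1 value set in advance and was not estimated from these sums. The shares recovered may therefore not hold for the real sums. Intervals of CPM (exact Poisson) and of shares (exact binomial) are at 95% and cover counting error only. For shares, cells were thinned to 1000 UMIs and shallower cells left out, for example 37 and 11 of the mature cells and 98 and 57 of the microglia-like cells. The text names the 9 members, genes of the related list and the 10 other genes most like the median member among those of at least 50 CPM in 1 sum (log2 of CPM plus 1). Some genes of the related list are counted but not reported here by name. The alternatives were DESeq2 1.42.0, library sizes alone, no block, no filter on genes, doublets kept, at least 500 genes per cell, under 20% mitochondrial UMIs, thinning, resolutions of 0.32 and 0.6, and each library left out. Tests of other classes and of deepest clusters against microglia-like cells, of the *Il33*-, *Anln*- and *Klk6*-led subclusters, and of the *Ctps*-led cells were added after seeing the data.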

Additional observations from a re-analysis of the deposited data

Results flagged for a closer look

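Member UMIs were also present in barcodes that no comparison used, those with under 300 detected genes. In library 1, 80 such barcodes held 262 member UMIs, 0.0811% of their 322912 UMIs, and in library 2, 73 barcodes held 142, 0.0550% of 258225. A count of 0 would have allowed up to 0.000929% and 0.00116%. Erythroid markers made up 90.9% and 89.6% of the UMIs of these barcodes, and of the remaining UMIs the members were 0.894% and 0.531%. *Mal* gave 24.0% and 21.8% of their member UMIs, beside 26.6% and 26.9% in oligodendrocyte-like cells.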

How the results depend on the processing

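Of the counts of members, that of genes above every other class fell from 9 to 1 at the finer clustering, where a cluster of new oligodendrocyte-like cells stands as a class of its own, and was 9 with that cluster left aside. Of the related genes, 10 were higher in mitochondria-rich than in *Il33*-led cells, and 6 were with all genes tested and 6 with library sizes alone. The count of 5 lower genes became 3 with DESeq2, 3 with no replicate block and 1 when cells were thinned. The level of members in microglia-like cells, 2.00% of that in oligodendrocyte-like cells, was 2.79% when thinned. The direction turned for *Mobp* in new over precursor cells, at -0.19 when thinned and from -0.33 without replicate 2 to 2.11 without replicate 1, and for *Cnp* in mature over new cells with library sizes alone, at -0.11, and the cause was not tested. Library sizes alone moved the median log2 difference of all genes to -0.25 for new over precursor, -0.43 for mature over new and -0.19 for mitochondria-rich over *Il33*-led cells, and the genes called higher and lower in mature over new cells from 2793 and 3363 to 1661 and 5293. They moved new over precursor from 2628 and 2789 to 1969 and 3363, and mitochondria-rich over *Il33*-led from 2094 and 2287 to 1170 and 3340. With DESeq2 that last median was 0.18. In the main fit the median of all genes over the deepest microglia-like cluster was -0.24 in fibroblast-like and -0.12 in deep mural-like cells. With doublets kept, 9 members rather than 6 were called higher in new than in precursor cells, with *Opalin* turned to 1.80, and the new cells then included 28 and 16 *Ctps*-led cells. The 86 member tests compared include many that were not called in the main fit and so had no call to lose. The calls of the main fit numbered 6 in new over precursor, 8 in mature over new and 8 in mature over *Ctps*-led cells. In mitochondria-rich over *Il33*-led cells 1 was higher and 3 were lower. There were 2 in *Klk6*-led over *Il33*-led cells and 1 in each other contrast of deep mature subclusters. Over microglia-like cells there were 1 in endothelial-like, 2 in OPC-like and 1 in neuroblast-like cells. Between deepest clusters there were 4 in neuron-like and 3 in OPC-like cells, 1 higher and 2 lower in mural-like cells, and 1 each in endothelial-like, ependymal-like and fibroblast-like cells. Of these calls, and not of the 86 tests, 25 were lost without the replicate block, 17 with DESeq2 and 8 with library sizes alone. The last count leaves out *Cnp* in mature over new cells, whose direction turned. Leaving out a library gives values with no test. On simulated counts with a spread set in advance, 2-fold changes were mostly not recovered, but some smaller differences were called in the sums themselves.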

Other observations

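The small subcluster with markers of new oligodendrocytes, 8 cells in library 1 and 18 in library 2, was led by *Matn1* and differed between the libraries. Its members summed to 24865 and 7718 CPM, with *Mobp* at 3162 and 176 CPM, *Mal* at 5283 and 885 CPM and *Mbp* at 3673 and 1917 CPM. In the new cells that were fitted, *Mobp* stood at 133 and 229 CPM and *Mal* at 202 and 123 CPM. These groups are too small to compare and no test was run.

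The OPC-like cells held a shallow subcluster of 105 and 101 cells, with medians of 2044 and 1930 UMIs. *Mbp* stood at 668 and 258 CPM there, beside 220 and 78.0 CPM in the deep OPC-like subcluster of 194 and 241 cells with medians of 8586 and 8204 UMIs. *Cnp* stood at 359 and 230 CPM in the shallow and at 341 and 259 CPM in the deep subcluster. *Mbp* thus differed between the depths and *Cnp* hardly did, and the difference was not tested.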
